A study of Mus musculus with 9 samples.

Results

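The genes of the replication-dependent histone clusters were followed in mouse embryonic fibroblasts of 3 Rb1 genotypes. Rb1 encodes the retinoblastoma protein. The probe sets were those whose annotated symbols, whether one or several, all belong to these clusters, and 55 of the 35512 probe sets on the array were chosen in this way. All 55 had values and none was removed for low signal. Each probe set was kept apart, so 5 measured H1, 5 H2A, 18 H2B, 13 H3 and 13 H4 genes, and 1 was annotated to H1f4 and H2bc6 together. Of the 55, 31 carried a single symbol and 24 carried several, and the 24 fell into 6 distinct sets of symbols. The RefSeq gene table lists 70 genes of these clusters, of which 55 stood on at least 1 of the probe sets and 31 on a probe set of their own. Probe sets that also list other genes were left out, 3 in number, and most H2A genes were not analysed here for that reason.

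The 3 genotypes were Rb +/+ (WT), Rb ∆G/∆G, a gene-targeted allele changed at the site that contacts most E2F proteins, and Rb -/- (null). Each had 3 arrays. All cultures, WT included, were plated at low density in 15 cm dishes and deprived of serum 24 h later by a change to 0.1% FBS. The series text calls the cultures littermate pairs without saying which arrays share a litter. No label states that replicates of a genotype are from different embryos or cultures, and the p-values therefore reflect only how much these arrays varied, part of which may be technical. Total RNA was labelled by a whole-transcript method and measured on Affymetrix Mouse Gene 1.0 ST arrays, and values are log2 RMA signal, on which a difference of 1 is a doubling. Each probe set has its own response, so a higher mean signal was used only to choose which probe sets are given in full and is not read as more mRNA.

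Histones H2A, H2B, H3 and H4 form the protein core around which DNA is wound, and the linker histone H1 binds where DNA enters and leaves it. Most of these proteins come from clustered genes without introns that are switched on at the start of DNA synthesis. Their mRNAs end in a stem-loop in place of a poly(A) tail, are processed with the stem-loop binding protein and the U7 particle, and are degraded when replication stops. Some cluster genes are also known to give polyadenylated mRNAs in cells that have left the cycle. The retinoblastoma protein restrains E2F, the factor that drives the genes of S phase, and so stands upstream of histone synthesis. Copies within a class are nearly identical in their coding sequence, so a probe set may read several genes even where it carries a single symbol. The value of any single histone gene below is uncertain to that extent.

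Array medians lay between 6.33 and 6.40. The Rb1 signal was 9.08 ± 0.13 (SD, n = 3) in WT, 9.61 ± 0.13 in ∆G and 8.31 ± 0.23 in null, where it fell. All 12 fibroblast markers were above the array medians, and their mean per array ranged from 11.7 to 12.1 in WT, 11.7 to 11.9 in ∆G and 11.2 to 11.3 in null. Of the 12, 7 fell in null against WT, beside 5.56% of all probe sets, and none was called in ∆G. The count in null was 3 without WT replicate 1, WT replicate 2 or null replicate 1. It was 1 with the signal of Y-linked genes as a covariate. The mean of 11 macrophage and leukocyte markers ranged from 5.60 to 6.75 in WT, 6.0 to 7.41 in ∆G and 5.80 to 6.15 in null. None of the 11 was called against WT in ∆G or in null. Epithelial, endothelial and skeletal muscle markers had list means between 5.40 and 5.85 on every array. The signal of Xist, the RNA of the inactive X chromosome, was 11.4 on WT replicate 3 and 11.5 to 11.98 on the null arrays, against 4.24 to 4.45 on the other 5 arrays, and Y-linked genes ran the other way. Null therefore differs from WT replicates 1 and 2 and from ∆G in these genes as well as in Rb1. The part of these marker differences in the histone results was not tested, beyond the alternative values given beside them. In bulk RNA, fewer cells of a kind and less RNA per cell cannot be told apart.

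The promoters of 5 single-symbol genes are shown because these genes moved in opposite directions in null cells: H2ac4, H1f1 and H4c4 rose, and H1f2 and H3c4 fell. Each sequence is the 150 bases before the gene's start from RefSeq, build GRCm38.p6, on the plus strand, and capitals mark CCAAT or TATAAA or the octamer ATTTGCAT on either strand. The windows are chr13:23750938-23751087 for H2ac4, chr13:23763518-23763667 for H1f1, chr13:23581418-23581567 for H4c4, chr13:23738657-23738806 for H1f2 and chr13:23575613-23575762 for H3c4.
H2ac4: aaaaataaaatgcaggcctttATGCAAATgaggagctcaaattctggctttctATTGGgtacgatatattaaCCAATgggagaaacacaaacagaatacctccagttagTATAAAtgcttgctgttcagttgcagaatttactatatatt
H1f1: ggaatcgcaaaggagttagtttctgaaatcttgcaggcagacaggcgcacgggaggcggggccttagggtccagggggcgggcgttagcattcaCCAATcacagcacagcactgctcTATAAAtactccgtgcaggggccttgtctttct
H4c4: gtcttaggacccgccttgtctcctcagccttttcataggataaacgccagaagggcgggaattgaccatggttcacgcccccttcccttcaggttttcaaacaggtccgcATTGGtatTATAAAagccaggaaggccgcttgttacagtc
H1f2: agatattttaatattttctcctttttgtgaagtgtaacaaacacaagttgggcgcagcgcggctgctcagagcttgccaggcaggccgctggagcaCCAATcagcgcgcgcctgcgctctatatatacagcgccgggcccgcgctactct
H3c4: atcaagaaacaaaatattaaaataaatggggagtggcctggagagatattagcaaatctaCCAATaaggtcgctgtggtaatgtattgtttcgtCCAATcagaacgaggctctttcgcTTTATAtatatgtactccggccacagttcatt
All 5 windows hold a CCAAT, the letters bound by the factor NF-Y, in H4c4 on the opposite strand only. TATAAA, a form of the TATA box, is in 4 of the 5, in H3c4 on the opposite strand only. H1f2 lacks these exact letters but holds tatatata, as H3c4 does on the strand shown, and other forms were not counted. H2ac4 alone among them holds the octamer, the letters bound by Oct factors.

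Motifs were counted in windows from 250 bases before to 50 bases after each start, on both strands. CCAAT was present in 85.5% of the 62 cluster genes with a promoter in the table and in 37.8% of all 27025 promoters. By class it was in every H1, H2A, H2B and H3 promoter and in 3 of the 12 H4 promoters. TATAAA was present in 56.5% of cluster genes and 14.1% of all promoters. The octamer was present in 38.9% of H2A and 43.8% of H2B promoters, in no H1, H3 or H4 promoter, and in 1.7% of all promoters. An E2F core (TTTGGCGC, TTTCGCGC, TTTCCCGC or TTTGCCGC) was present in 16.1% of cluster genes and 2.3% of all promoters. Of the single-symbol genes measured here, 26 had a promoter in the table. CCAAT was in all 7 of these that rose in null, in all 3 that fell and in 12 of the 16 others, and TATAAA was in 6 of 7, 1 of 3 and 9 of 16. The E2F core was in none of the 7 or the 3 and in 1 of the 16, H2bc22. These matches are exact letters on either strand of a window and not measured binding. A window without TATAAA may hold another form of the TATA box.

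In cells with the E2F contact mutated, no histone cluster probe set was called as changed. In ∆G against WT, 0 of the 55 passed an adjusted p of 0.05 in limma, with Benjamini-Hochberg adjustment over all 35511 probe sets with values, of which 0.191% passed. The median log2 difference of the 55 was 0.10, beside -0.011 over all probe sets. Above 0 lay 40 of the 55, beside 16420 of all 35511. The 40 were 19 of the 31 with a single symbol and 21 of the 24 with several, which share symbols and are not separate genes. At an unadjusted p under 0.05 there were 6 of the 55, a share near the 9.05% of all probe sets. All 6 were lower in ∆G, where 4.68% of all probe sets were lower at that p, and they are described below without a call. The median depended on single arrays: it was -0.096 without ∆G replicate 3 and -0.018 without WT replicate 3, 0.27 without WT replicate 1, and 0.24 and 0.23 without ∆G replicates 1 and 2.

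The 6 were H1, H2B and H3 genes, each with a symbol of its own. H3c4, an H3 gene of the chromosome 13 cluster, gave 7.93, 8.25 and 7.75 on the WT arrays and 7.43, 7.10 and 7.25 on the ∆G arrays. Its groups did not overlap, the log2 difference was -0.72 (SE 0.19), and the adjusted p in limma was 0.25. H1f2, a linker histone gene, gave 9.69, 9.83 and 9.51 in WT and 9.36, 8.95 and 9.14 in ∆G, a log2 difference of -0.53 (SE 0.16, adjusted p = 0.33). H2bc4, an H2B gene, gave 9.84, 9.96 and 9.64 in WT and 9.47, 9.30 and 9.28 in ∆G, a log2 difference of -0.47 (SE 0.11, adjusted p = 0.20). For both, every ∆G array was below every WT array. H3c15 had a log2 difference of -0.43 (adjusted p = 0.35), and H1f3 and H3c7, named after their values were seen, had -0.41 (adjusted p = 0.45) and -0.24 (adjusted p = 0.40).

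No H2A or H4 probe set had an unadjusted p under 0.05 in ∆G. H2ac15, the H2A gene with the lowest p in ∆G, gave 8.86, 7.90 and 7.68 in WT and 8.70, 8.27 and 9.07 in ∆G, a log2 difference of 0.53 (SE 0.29, adjusted p = 0.67 in limma). H4c14, the H4 gene with the lowest p, gave 9.24, 8.88 and 8.59 in WT and 9.11, 8.94 and 9.78 in ∆G, a log2 difference of 0.37 (SE 0.22, adjusted p = 0.69). In both genes the WT and ∆G arrays overlapped. A p above the threshold does not show that the genotypes had equal histone mRNA, since standard errors of the 55 ran from 0.080 to 0.40.

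**Figure D1:**
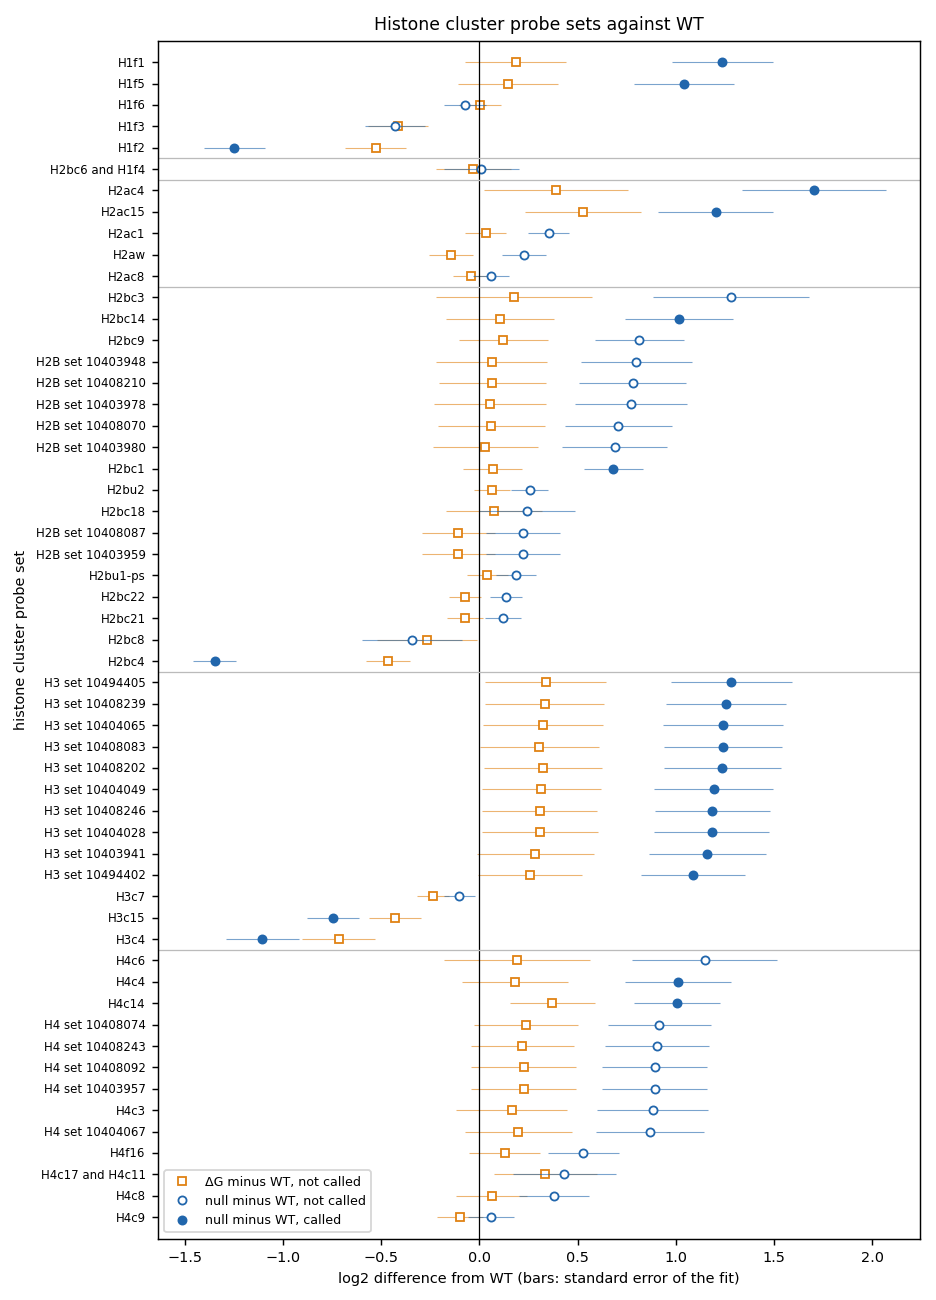
Log2 difference from WT (horizontal axis) of each of the 55 histone cluster probe sets (vertical axis, by class), with ∆G minus WT as squares, null minus WT as circles, filled symbols for an adjusted p under 0.05 and bars for the standard error of the fit. No square is filled, and among the circles 18 are filled to the right of 0 and 4 to the left.

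Histone cluster genes changed in both directions in null cells, a comparison that shares its WT arrays with the one above. In null against WT, 22 of the 55 probe sets were called by limma, beside 10.2% of all probe sets tested. Of the 22, 18 rose and 4 fell, where 4.67% of all probe sets rose and 5.56% fell. The median log2 difference of the 55 was 0.78, beside -0.015 over all probe sets. Probe sets with a single symbol had 8 that rose and 4 that fell among 31, with a median of 0.26. Those with several symbols had 10 that rose and none that fell among 24, with a median of 0.90. With a single probe set kept for each set of symbols, an alternative chosen after seeing the data, 9 rose and 4 fell among 37 and the median was 0.38.

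Linker histone genes split by gene. H1f1 gave 7.70, 7.28 and 6.98 in WT, 7.31, 7.14 and 8.06 in ∆G, and 8.77, 8.28 and 8.62 in null. All null arrays lay above all others, and against WT the gene rose by a log2 of 1.24 (SE 0.26, 2.36-fold, adjusted p = 0.017 in limma). H1f5, another S-phase linker histone, gave 8.51, 8.03 and 7.85 in WT, 8.16, 7.82 and 8.85 in ∆G, and 9.37, 9.0 and 9.15 in null, a rise of 1.04 (SE 0.25, adjusted p = 0.032). H1f2 fell, with 8.69, 8.46 and 8.14 in null, 1.25 below WT on the log2 scale (log2 difference -1.25, SE 0.16, adjusted p = 0.0015). Its genotypes formed 3 separate ranges, with WT highest and null lowest. H1f3 (-0.43, adjusted p = 0.12) and the testis linker histone gene H1f6 (-0.07, adjusted p = 0.77) did not pass, and the probe set shared by H1f4 and H2bc6 gave 7.50, 7.13 and 7.02 in WT, 7.22, 6.77 and 7.56 in ∆G, and 7.33, 7.23 and 7.13 in null, where its log2 difference from WT was 0.010.

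Among H2A genes, 2 of 5 rose and none fell. H2ac4 had the largest rise of the 55, with 6.24, 5.25 and 5.0 in WT, 5.97, 5.16 and 6.52 in ∆G, and 7.28, 7.14 and 7.17 in null. The null arrays were above all others, and the log2 difference from WT was 1.70 (SE 0.36, 3.26-fold, adjusted p = 0.019 in limma). H2ac15 gave 9.50, 9.31 and 9.25 in null, a rise of 1.20 (SE 0.29, adjusted p = 0.032). H2aw, the H2A gene of the chromosome 11 cluster and the H2A probe set chosen for its signal, gave 9.20, 9.05 and 9.02 in WT, 8.96, 8.72 and 9.16 in ∆G, and 9.42, 9.24 and 9.29 in null, and its difference of 0.23 was not called (adjusted p = 0.28). H2ac1, expressed in testis, had 0.35 (adjusted p = 0.064) and H2ac8 had 0.06 (adjusted p = 0.79).

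H2B probe sets were called in 3 of 18 cases, with 2 higher and 1 lower. H2bc14 gave 9.32, 8.99 and 8.64 in WT, 8.64, 8.84 and 9.79 in ∆G, and 9.95, 9.95 and 10.11 in null, a rise of 1.02 (SE 0.27, adjusted p = 0.048 in limma). H2bc1, the testis H2B gene, gave 6.06, 5.94 and 6.01 in WT, 5.89, 5.88 and 6.44 in ∆G, and 6.87, 6.57 and 6.61 in null, a rise of 0.68 (SE 0.15, adjusted p = 0.021). In both genes every null array was above every WT and ∆G array. H2bc4 had the lowest adjusted p of the 55 and fell, with 8.64, 8.44 and 8.32 in null, a log2 difference of -1.35 from WT (SE 0.11, 2.55-fold lower, adjusted p = 0.00028). As with H1f2, the 3 genotypes did not overlap and ∆G lay between WT and null.

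The 7 H2B probe sets annotated to 14 or 15 symbols did not pass. Their log2 differences in null ran from 0.22 to 0.80, with adjusted p from 0.11 to 0.56, and 2 of them hold identical values. The H2B set chosen for its signal, 10403980, gave 11.50, 11.16 and 10.67 in WT, 10.78, 10.88 and 11.76 in ∆G, and 11.77, 11.88 and 11.74 in null. Its null arrays were above the WT arrays but overlapped ∆G replicate 3. H2bc3 had the largest positive difference among the single-symbol H2B genes, 1.28, at an adjusted p of 0.078.

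Of 13 H3 probe sets 12 were called, and the called single-symbol and shared probe sets went opposite ways. All 10 probe sets annotated to the same 12 H3 genes rose, by log2 differences from 1.09 to 1.28 with adjusted p from 0.030 to 0.039 in limma. They share all their symbols and so do not stand for 10 separate genes. The largest, 10494405, gave 11.65, 10.88 and 10.58 in WT, 11.19, 10.98 and 11.95 in ∆G, and 12.36, 12.56 and 12.04 in null. The H3 set chosen for its signal, 10404065, gave 11.70, 10.96 and 10.66 in WT, 11.31, 10.97 and 12.01 in ∆G, and 12.39, 12.56 and 12.08 in null. In both, null was above WT and ∆G on every array, with ∆G replicate 3 the nearest.

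H3c4 and H3c15, which are also among those 12 symbols, fell on their own probe sets. H3c4 gave 7.28, 6.66 and 6.67 in null, a log2 difference of -1.11 from WT (SE 0.19, adjusted p = 0.0065 in limma). Its null arrays were all below WT and overlapped the ∆G arrays. H3c15, on chromosome 3, gave 5.72, 6.07 and 5.94 in WT, 5.67, 5.25 and 5.53 in ∆G, and 5.33, 5.13 and 5.03 in null, a log2 difference of -0.75 (SE 0.13, adjusted p = 0.0082). H3c15 lay below the array medians throughout. H3c7 was in the lowest 25% of all probe sets by mean signal (under 5.07) and had -0.10 in null (adjusted p = 0.52).

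H4 probe sets all lay above 0 in null, beside 16371 of all 35511 probe sets, and 2 of 13 were called. H4c4, also the H4 set chosen for its signal, gave 11.38, 10.74 and 10.44 in WT, 10.83, 10.68 and 11.59 in ∆G, and 11.92, 11.96 and 11.70 in null, a rise of 1.01 (SE 0.27, 2.01-fold, adjusted p = 0.046 in limma). H4c14, of the chromosome 3 cluster, gave 10.01, 9.88 and 9.85 in null, a rise of 1.01 (SE 0.22, adjusted p = 0.020). In both, all null arrays were above all WT and ∆G arrays. The 5 probe sets annotated to 11 H4 symbols had log2 differences from 0.87 to 0.92 with adjusted p from 0.060 to 0.082, just outside the threshold, and 2 of these hold identical values. H4c6 had a larger difference, 1.15, with a standard error of 0.37 and an adjusted p of 0.090.

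**Figure D2:**
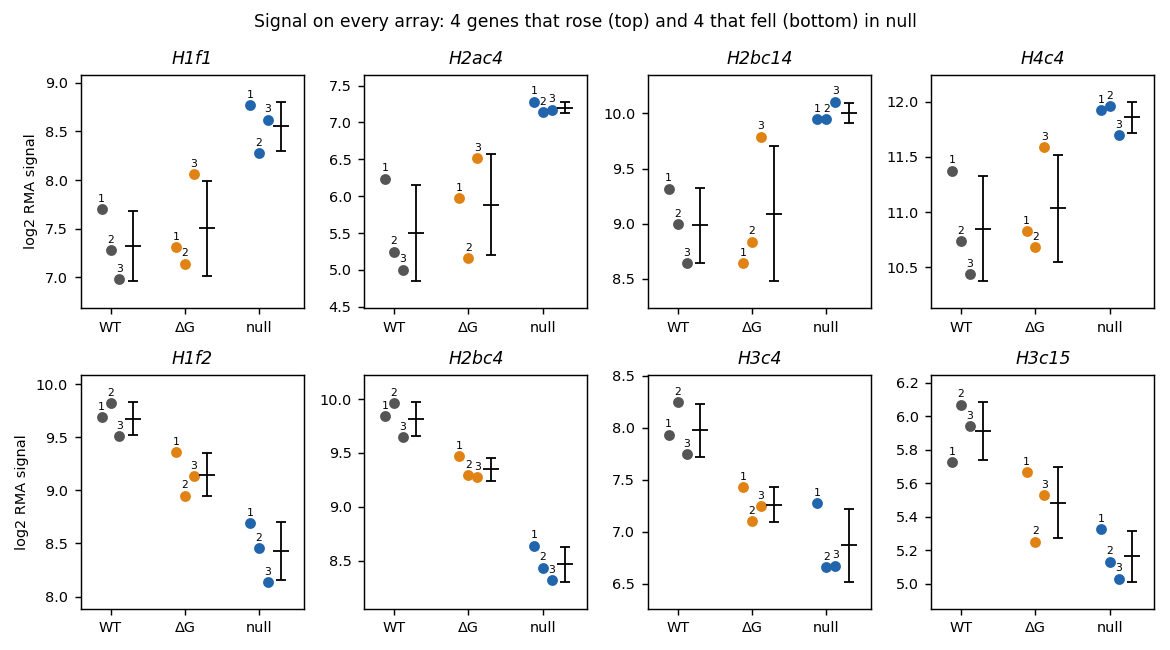
Log2 RMA signal (vertical axis, its own scale in each panel) of 4 genes that rose in null (H1f1, H2ac4, H2bc14, H4c4) and 4 that fell (H1f2, H2bc4, H3c4, H3c15) on every array; numbers are replicates and bars the mean ± SD of 3 arrays. In the top row ∆G replicate 3 is the highest ∆G array, and in the bottom row the ∆G arrays lie below every WT array.

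The calls of the rises and of the falls differed in how far they rested on single arrays. With all arrays, adjusted p in limma ran from 0.017 to 0.048 for the rises and from 0.00028 to 0.0082 for the falls. The rises therefore stood nearer the threshold, and a fit without an array has fewer degrees of freedom. The share of all probe sets called in each such fit is not given here, so the counts are not read as particular to histones. Leaving out WT replicate 2, WT replicate 3 or null replicate 1 left no histone probe set called as higher, with 4, 5 and 4 called as lower. Without null replicate 2 there were 2 higher, without null replicate 3 there were 3, and without ∆G replicate 1 there were 11. Without ∆G replicate 3, which enters this comparison only through the shared estimate of the spread, there were 32 higher, of which 9 were H2B and 9 were H4. The 4 falls kept their calls in all 9 such fits. Against WT replicate 3 alone, the WT array that matches null in Xist and Y-linked signal, 3 rose and 1 fell with a median of 1.24, the lone array being assumed to vary like the others. With Y-linked signal as a covariate none rose and 2 fell, with a median of 1.19. That fit can tell genotype from Y-linked signal mainly through the WT arrays.

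**Figure D3:**
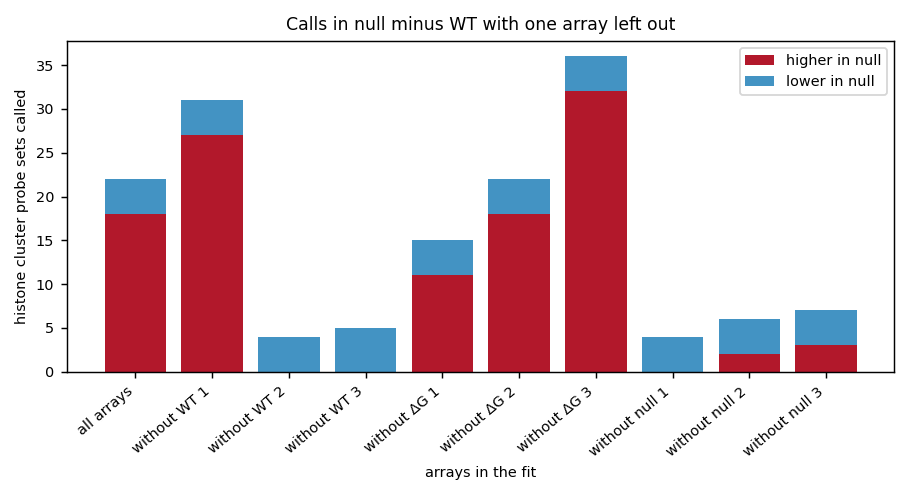
Number of histone cluster probe sets called in null minus WT (vertical axis) with all arrays and with each array left out in turn (horizontal axis), split into higher and lower in null. The count of higher calls moves between 0 and 32, and that of lower calls between 4 and 5.

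Within WT and within ∆G, most histone probe sets had the same highest and lowest array. WT replicate 1 was the highest WT array for 43 of the 55 and WT replicate 3 the lowest for 47. Among the ∆G arrays, replicate 3 was the highest for 48 and replicate 2 the lowest for 39. Among the null arrays, replicate 1 was the highest for 28, replicate 2 for 24 and replicate 3 for 3. The same counts over all probe sets are not given here, and many of the 55 share symbols. The order of arrays is therefore not read as particular to histones. The mean over the 55 was 8.83, 8.50 and 8.22 in WT, 8.48, 8.29 and 9.01 in ∆G, and 9.17, 9.11 and 8.97 in null. The null arrays lay close together, and ∆G replicate 3 lay inside their range.

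Other cell cycle genes were set beside the histones on the same arrays. The mean of 15 S-phase replication genes, among them the Mcm helicase subunits and Pcna, was 7.78, 7.33 and 7.50 in WT, 8.40, 8.37 and 8.66 in ∆G, and 9.16, 9.25 and 9.04 in null. Of these, 8 rose in ∆G, beside 0.191% of all probe sets called there, and all 15 in null, beside 4.67% that rose. The median log2 differences were 0.93 and 1.57. The count in ∆G rested in part on single arrays: it was 4 without WT replicate 3 or ∆G replicate 1, 5 without WT replicate 2 or ∆G replicate 2, and 4 with the Y-linked covariate. In null it was 14 or 15 under every alternative run. The genotypes did not overlap in this mean. The mean of 11 mitotic genes was 8.33, 7.63 and 7.67 in WT, 7.97, 7.82 and 8.62 in ∆G, and 9.06, 8.89 and 8.82 in null, and none was called in ∆G while 11 rose in null. That count fell to 0 without WT replicate 2 or null replicate 1 and with the Y-linked covariate, to 3 without WT replicate 3, and to 4 without null replicate 2 or 3 and against WT replicate 3 alone. In WT and ∆G the mitotic means overlapped. WT replicate 1 and ∆G replicate 3 were the highest of their groups in the histone, mitotic and S-phase means alike, while WT replicates 2 and 3 stood in the opposite order in the histone mean and in the other 2. The part of these array differences in the histone results was not tested.

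**Figure D4:**
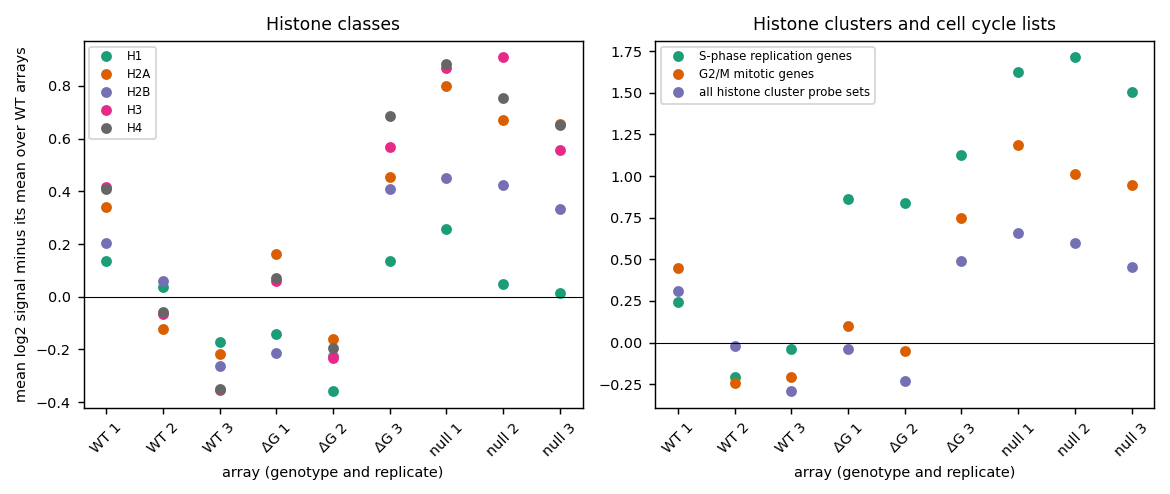
Mean log2 signal on each array (horizontal axis, genotype and replicate) minus its mean over the WT arrays (vertical axis), for the 5 histone classes (left) and for 15 S-phase genes, 11 mitotic genes and all 55 histone probe sets (right). The S-phase mean is above every WT array on all 3 ∆G arrays, while among these the histone mean is above every WT array on replicate 3 only.

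Null against ∆G compares the Rb -/- genotype with the allele changed at the site that contacts most E2F proteins. Every null array also had high Xist and low Y-linked signal, and every ∆G array the reverse. In this comparison the 2 differences cannot be told apart. Of the 55, 2 were called (3.64%), beside 3.67% of all probe sets, and both were lower in null, where 2.19% of all probe sets were. H2bc4 had a log2 difference of -0.88 (SE 0.11, adjusted p = 0.0061 in limma) and H1f2 one of -0.72 (SE 0.16, adjusted p = 0.040). Neither was called with Y-linked signal as a covariate. That fit can tell genotype from Y-linked signal mainly through the WT arrays, so no conclusion is drawn from the lost calls. Y-linked means ran from 8.40 to 8.90 in ∆G and from 3.96 to 4.08 in null. The median of the 55 was 0.67, beside -0.0055 over all probe sets, and 35 were higher at an unadjusted p under 0.05, where 8.19% of all probe sets were, and none of the 35 passed adjustment. H1f2 lost its call when any array other than WT replicate 3 was left out, with adjusted p up to 0.15. Without ∆G replicate 3, 24 probe sets were higher and 1 was lower, and the median was 0.92. The share of all probe sets called in that fit is not given here, so these counts are not read as particular to histones. Higher calls among the 11 mitotic genes went from 0 to 7 in that fit, and among the 15 S-phase genes from 8 to 11. A moderated F test over the 3 genotypes called 7 of the 55, beside 7.33% of all probe sets, namely H1f1, H1f2, H2ac4, H2bc1, H2bc4, H3c4 and H3c15.

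Factors that make and process histone mRNA rose in part. Of 18 measured, none passed in ∆G, with 5 at an unadjusted p under 0.05 in limma, beside 9.05% of all probe sets. In null 7 rose, beside 4.67% of all probe sets, with a median log2 difference of 0.16. Slbp, the stem-loop binding protein, gave 7.44, 7.12 and 7.27 in WT, 7.67, 7.74 and 8.02 in ∆G, and 8.51, 8.49 and 8.17 in null. Its genotypes did not overlap, and it rose in null by 1.12 over WT (adjusted p = 0.0013 in limma) and by 0.58 over ∆G (adjusted p = 0.047). Casp8ap2, a protein of the histone locus body, rose by 0.85, and Npat, the coactivator of histone gene transcription, rose by 0.49. Cstf2, a cleavage factor, rose by 0.57, Eri1, the exonuclease that trims the stem-loop, by 0.68, and Tut4, a uridylyltransferase, by 0.32. The seventh, the cleavage factor subunit Cpsf2, rose by 0.28 and is named to complete the count. Hinfp, the factor that binds H4 promoters, had -0.03 (adjusted p = 0.90), and the U7 particle proteins Lsm10 and Lsm11 had 0.16 and 0.04. Slbp, Npat, Casp8ap2 and Cstf2 kept their calls against WT with any single array left out, and all but Cstf2 kept them with the Y-linked covariate and against WT replicate 3 alone, the 3 factors called under each of these. Cpsf2 lost its call without any one array except ∆G replicate 3. Eri1 lost it without WT replicate 1 or 2, ∆G replicate 1 or null replicate 1 or 2, and Tut4 without WT replicate 2 or 3, ∆G replicate 1 or any null array, with adjusted p up to 0.15 over these genes. The Slbp difference from ∆G lost its call in 7 of 9 such fits, all but those without ∆G or null replicate 3.

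Among 9 measured variant histones, whose genes lie elsewhere and whose synthesis is not limited to S phase, 4 rose in null. Over all probe sets 4.67% rose. None of the 9 was called in ∆G, with 1 at an unadjusted p under 0.05 in limma. Cenpa, the centromeric H3, rose by 0.90, the linker histone H1f10 by 0.81, and the H2A.Z genes H2az1 and H2az2 by 0.78 and 0.71. H2ax, Macroh2a1, Macroh2a2, H2aj and H3f3a had log2 differences from WT of 0.32, -0.12, 0.18, 0.06 and 0.24 and were not called. H1f10 and H2az2 kept their calls with any array left out, but none of the 9 was called with the Y-linked covariate or against WT replicate 3 alone. H2az1 lost its call without WT replicate 2 or null replicate 1 (adjusted p up to 0.055 in limma), and Cenpa lost it without WT replicate 2 or 3, ∆G replicate 1 or any null array (up to 0.15).

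**Figure D5:**
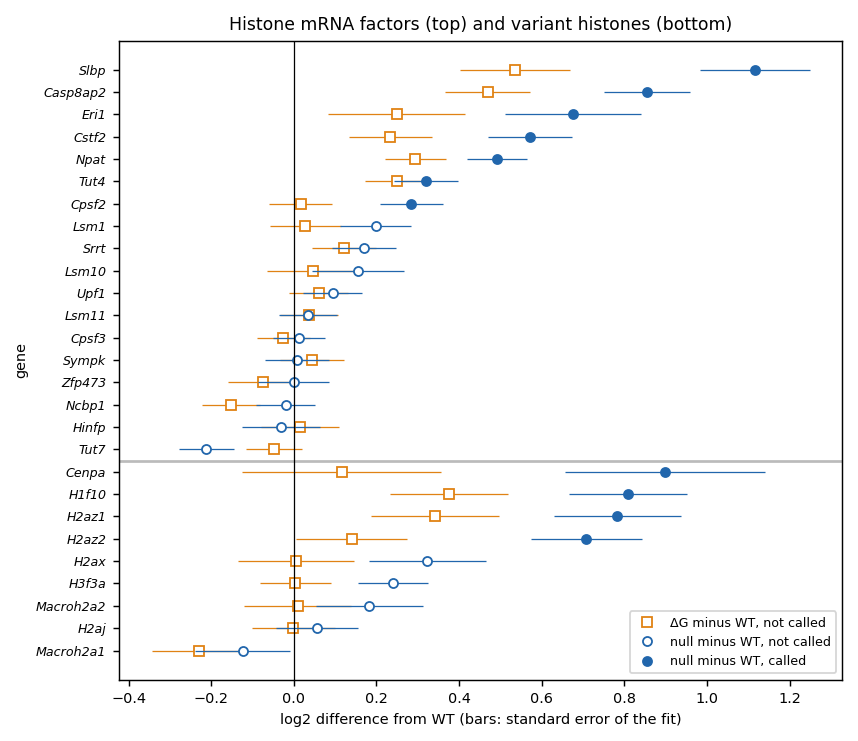
Log2 difference from WT (horizontal axis) of 18 factors of histone mRNA synthesis and processing and 9 variant histones (vertical axis), with ∆G minus WT as squares, null minus WT as circles, filled symbols for an adjusted p under 0.05 and bars for the standard error. Filled circles mark 7 factors and 4 variants, and no square is filled.

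Neighbouring cluster genes were read side by side, with no test of position. H3c4 and H4c4 are adjacent on the same strand of chromosome 13 in the RefSeq gene order, and in null the former fell by 1.11 and the latter rose by 1.01. H4c6 and H1f3 are adjacent on opposite strands and had 1.15 and -0.43, neither called. The pair H2bc1 and H2ac1, on opposite strands, had 0.68 and 0.35, and H2ac8 and H2bc8, also on opposite strands, had 0.06 and -0.34, of which H2bc1 alone was called. H2bc3 and H2ac4 are neighbours on the same strand and had 1.28 and 1.70. Of single-symbol genes on chromosome 13, 7 rose and 3 fell among 23, on chromosome 3 there was 1 of each among 4, and the 3 on chromosome 11 and the 1 on chromosome 6 were not called.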

How the data were processed

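Total RNA was hybridised to 9 Affymetrix whole-transcript arrays, 3 for each genotype. The authors deposited log2 values from RMA, a method of background correction, quantile normalization and summary per probe set. The series text names BRB-ArrayTools for this step, and the submitters' processing notes list RMA and affy. Versions, the array's genome build and the arrays that entered each RMA run are not stated there. Detection calls were not applied. Precision is limited by the number of arrays.

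Symbols came from a platform annotation table, which gave 21789 probe sets a single symbol, 1621 several and 12102 none. The 55 histone cluster probe sets and the gene lists were chosen with earlier results of these data known. Groups follow the labelled genotypes. All 35511 probe sets with values entered a limma fit (limma 3.58.1, R 4.3.3) over all 9 arrays with a mean per genotype, 6 residual degrees of freedom, default eBayes and Benjamini-Hochberg adjustment within each of 3 comparisons, called at 0.05. No test was made over the histone probe sets as a list. The fit was tested on simulated data. Gene lists from the same arrays use the probe set with that symbol alone.

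Values on every array are given for the called histone probe sets (at most 5 per class and direction), the one with the lowest p in ∆G of each class and the one with the highest mean signal of each class. Genes of other lists are named where called, up to 6 per list, with those that missed where a count would hide them. Alternatives were other normalization, filters, eBayes settings, sets of probe sets or arrays, a Y-linked covariate, a replicate block, and leaving out each array, and 1 was added after seeing the data (a probe set per set of symbols). Promoter windows came from a RefSeq table of build GRCm38.p6.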

Additional observations from a re-analysis of the deposited data

How the results depend on the processing

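No called difference changed direction under any alternative run for it. In ∆G against WT no histone probe set was called under any alternative. In null against WT, 22 were called, and 4 against WT replicate 3 alone, 2 with the Y-linked covariate, 13 with a probe set per set of symbols, 10 with the replicate block, and 4 to 36 with an array left out. The median of 0.78 became 1.24, 1.19 and 0.38 under the first 3 of these, 0.26 with a probe set per gene, and 0.57 to 0.98 with an array left out. Other settings raised the count of 22, to 32 with only probe sets that have a symbol and 28 with repeated quantile normalization. It was 27 with only the groups compared and 25 with the dimmest 25% of probe sets removed. In null against ∆G, 2 were called, and 0 with the Y-linked covariate, 4 with the dimmest 25% of probe sets removed, 7 with a probe set per gene, 6 with only probe sets that have a symbol, 1 with only the groups compared, and 1 to 25 with an array left out. The median of 0.67 became 1.23 with the covariate, 0.32 with a probe set per gene, 0.32 per set of symbols, and 0.47 to 0.92 with an array left out. Settings with fewer probe sets adjust over fewer tests or count fewer members; otherwise the cause was not tested. H2bc4 kept its call against WT under all 19 alternatives run for it, and H1f2 lost it only against WT replicate 3 alone (adjusted p = 0.051 in limma). H3c4 and H3c15 lost theirs there and with the covariate, with adjusted p up to 0.13 and 0.093.

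Whether arrays of the same number share a litter was not tested. The correlation of deviations was over 0.1 in 1 of 9 same-number pairs (range -0.07 to 0.18). Among the 18 pairs of different number it was over 0.1 in 1 (range -0.15 to 0.104). With the replicate block, 6 histone probe sets were higher and 4 lower in null against WT, and 2 were called against ∆G; none of the 10 shared H3 probe sets kept its call, and H3 had 2 called, both lower. With 3 arrays a genotype, small differences in ∆G could not be detected, and log2 RMA signal compresses differences at low signal.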
